A study of Homo sapiens with 4 samples.

Results

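H3K4me1, the monomethylated form of lysine 4 on histone H3, marks enhancers and the flanks of active promoters, and a stretch of neighbouring nucleosomes that carry it appears in ChIP-seq as a wide region of enriched reads. LSD2 (gene KDM1B) is a demethylase that removes methyl groups from this lysine. The regions described here are the widest places where the authors called more H3K4me1 in LSD2-depleted cells than in control cells. Members were chosen by their measured width: distinct rows of the deposited MACS peak list on autosomes that span 1000 bp or more. This rule took 1441 of the 157150 distinct autosomal peaks, or 0.917% (95% Wilson interval 0.871 to 0.965%), and of 160601 distinct peaks in all. Only 3 further peaks of that width lay on chromosomes X and Y, and they were left out.

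The cells are HepG2, an established human liver tumour line. They received either an siRNA against LSD2 or a control siRNA, named GL3 in the file header, and each condition gave 1 H3K4me1 ChIP library and 1 input library. The peak list sets the LSD2 siRNA H3K4me1 library against the control siRNA H3K4me1 library, and the header names neither input. No condition was replicated and no test between conditions was possible. The labels and the header state no read totals. The depth is therefore unknown, and the intervals below reflect counting error alone, with every peak taken as independent. The file gives a chromosome, a start and an end per row and no height, fold or p-value, so a wide peak is not known to be a strong one. No genome or annotation of hg19 was at hand. Gene names beside peaks are general knowledge of hg19, not a result of an annotation, and each named gene was only checked to lie on the peak's chromosome in the RefSeq gene table of GRCh38.p14.

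Most of the wide peaks were only a little over the limit. The median was 1164 bp and the quartiles 1066 and 1358 bp, against a median of 315 bp for the narrower autosomal peaks. In all, 496 of them (34.4%) were under 1100 bp, 1243 were under 1500 bp, 166 were from 1500 to 1999 bp, 32 were 2000 bp or wider and 3 were over 3000 bp. The 5 peaks nearest the limit on the inner side were all 1000 bp wide, and the 5 nearest on the outer side were 998 to 999 bp wide. The class just below, from 900 to 999 bp, held 839 peaks, so the limit falls on a slope and not in a trough of the width distribution. Together the wide peaks covered 1806 kb, or 3.36% of the 53.7 Mb covered by autosomal peaks.

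**Figure D1:**
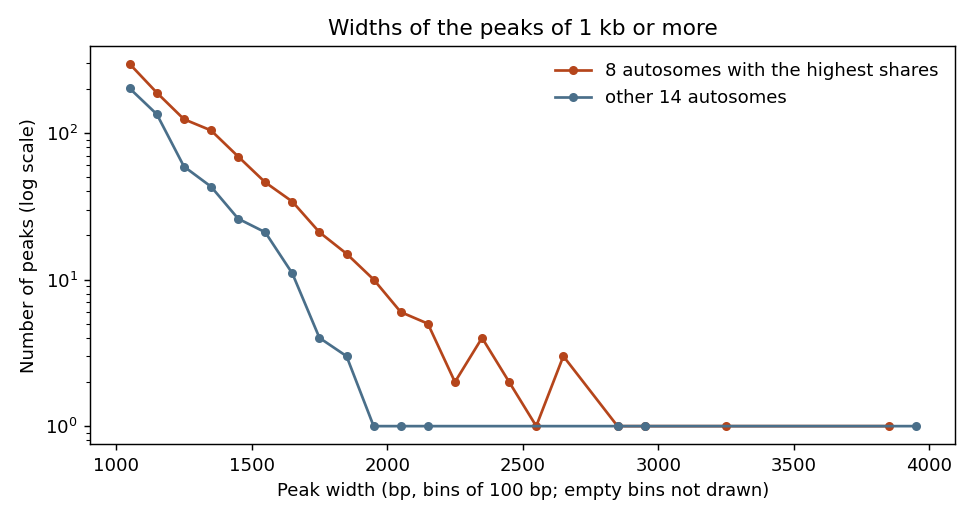
Number of peaks in each 100 bp class of width (x axis, bp) on a log scale, for the 8 autosomes with the highest shares of wide peaks and for the other 14. Counts fell from 295 and 201 peaks at 1000 to 1099 bp to 46 and 21 at 1500 to 1599 bp, and bins without a peak are not drawn.

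Wide peaks were unevenly spread over the chromosomes. As a share of each chromosome's own peaks they formed a high set of 8 autosomes and a low set of 14. Chromosome 17 had the highest share, 98 wide peaks of 5036 (1.95%, 95% Wilson interval 1.60 to 2.37%). It was followed by chromosome 20 with 80 of 4142 (1.93%, 1.55 to 2.40%) and chromosome 14 with 73 of 4115 (1.77%, 1.41 to 2.22%). Chromosomes 22, 2, 16, 6 and 10 followed at 1.61, 1.52, 1.499, 1.47 and 1.29%. The next chromosome, 11, was at 0.663% (0.496 to 0.886%), and the lowest, chromosome 5, had 31 of 9405 (0.330%, 0.232 to 0.467%). The step from chromosome 10 to chromosome 11 was 1.94-fold, and no other step between neighbours in the order was over 1.22-fold. Neighbours in the order within each set had overlapping intervals, so their ranks are not resolved by these counts. Between the sets no intervals overlapped: the lowest lower bound of the 8 was 1.07%, on chromosome 10, and the highest upper bound of the 14 was 0.965%, on chromosome 21.

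The 8 autosomes held 933 wide peaks among 59900 peaks (1.56%, 1.46 to 1.66%), and the other 14 held 508 among 97250 (0.522%, 0.479 to 0.570%). The 8 thus carried 64.7% of the wide peaks and 38.1% of all autosomal peaks. The ratio of the shares was 2.98 (2.68 to 3.32), and per Mb of searched sequence it was 3.79, with 1.06 against 0.280 wide peaks per Mb. The sets were drawn after the shares were seen, so these ratios are descriptions. Total peak density differed far less, at 68.2 against 53.6 peaks per Mb, a ratio of 1.27.

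**Figure D2:**
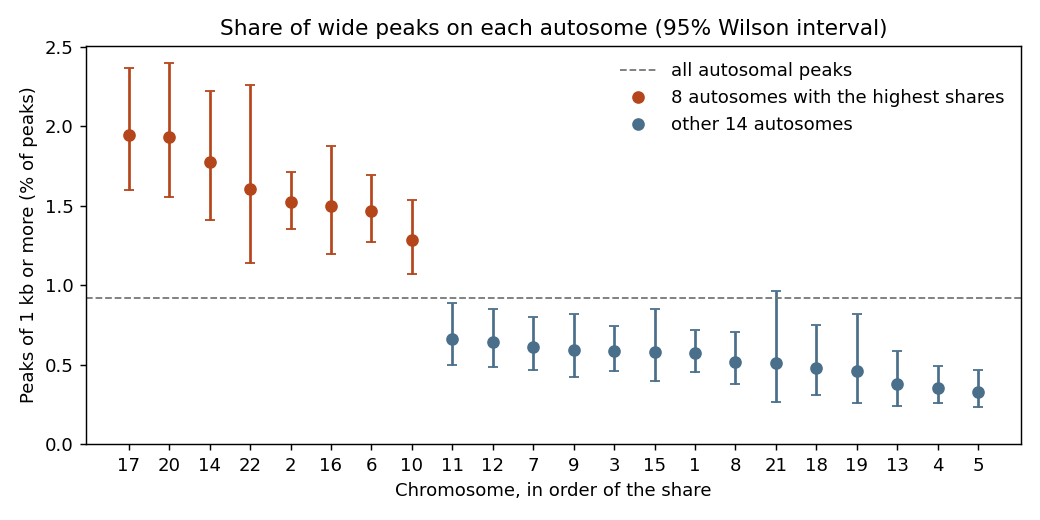
Wide peaks as a percentage of all peaks on each autosome (y axis), with 95% Wilson intervals, in descending order of the share; the dashed line is the 0.917% of all autosomal peaks. Chromosomes 17 to 10 lie at 1.29 to 1.95% and chromosomes 11 to 5 at 0.330 to 0.663%.

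The order by wide peaks was not the order by peak density. Chromosome 14 was rank 3 by share of wide peaks but rank 21 of 22 by density, at 46.7 peaks per Mb. Chromosome 22 was rank 4 by share and rank 9 by density, at 56.6 peaks per Mb, whereas chromosome 3, at 58.9 peaks per Mb, had a share of 0.584%. Across the 22 autosomes the share of wide peaks and the density had a Spearman rho of 0.54 and a Pearson r of 0.63. The share and the median width of the narrower peaks had a rho of 0.60 and an r of 0.65. Both pairs are descriptions over chromosomes from the same 2 libraries. The narrower peaks of the 8 autosomes were also shifted towards greater width, with a median of 321 bp against 311 bp and with 3.90% against 2.32% of them at 700 bp or more.

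The part of a width class that lay on the 8 autosomes was larger from 420 bp on than below. Of the peaks of 145 to 299 bp, 36.6% lay there, and of those of 300 to 419 bp also 36.6%. The part was 42.8% at 420 to 699 bp and 50.6% at 700 to 999 bp. Peaks of these classes entered the choice of the 8 chromosomes only through the count of all peaks. Among the wide peaks it was 62.8% at 1000 to 1499 bp, 75.9% at 1500 to 1999 bp and 84.4% at 2000 bp or more, where 27 of 32 peaks lay on them. These 3 values are descriptions only, since the wide peaks themselves chose the 8 chromosomes.

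Wide peaks were more frequent in 1 Mb windows with many peaks, in both sets of chromosomes. In windows of up to 39 peaks their share was 0.654% (0.409 to 1.04%) on the 8 autosomes and 0.213% (0.147 to 0.307%) on the other 14. In windows of 40 to 59 peaks it was 0.717% (0.566 to 0.908%) and 0.358% (0.303 to 0.423%). In windows of 60 to 79 peaks it was 1.45% (1.31 to 1.61%) and 0.659% (0.578 to 0.751%), and in windows of 80 to 121 peaks 2.09% (1.92 to 2.28%) and 1.01% (0.844 to 1.20%). Within each set, the share in windows of 80 peaks or more was thus above that in windows of 40 to 59 peaks, with intervals that did not overlap. A higher share on the 8 autosomes follows in part from how they were chosen, on these same wide peaks, so the values of the 2 sets are given side by side and nothing is read from their difference. Read coverage and the copy number of these chromosomes in the cells were not measured here, and their part in the widths was not tested.

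Within chromosomes 14, 6 and 17 the wide peaks kept to some stretches. On chromosome 14 all 73 wide peaks lay from 19 to 44 Mb, among 2295 peaks (3.18%, 2.54 to 3.98%). The wide peaks were unevenly spread within that stretch. There were 21 wide of 877 peaks from 20 to 30 Mb and 51 of 1008 from 30 to 40 Mb. Only 1 of 514 was wide from 40 to 50 Mb (0.195%, 0.0344 to 1.09%), which crosses the limit at 44 Mb. The part from 40 to 44 Mb thus held at most 1 wide peak. From 44 Mb to the end there was none among 1820 peaks, where a count of 0 allows a share of up to 0.165% by a floor of 3 counts over the whole stretch (0.211% by the upper Wilson bound). Against that floor of 3 counts the share in the first stretch, 3.18% as counted, was at least 19.3-fold higher, a bound that leaves out the counting error of the 73 peaks, while the density of peaks per Mb differed 3.23-fold. The widest peak beyond 44 Mb measured 946 bp. On chromosome 6, 106 of 4664 peaks from 0 to 58 Mb were wide (2.27%, 1.88 to 2.74%) and 69 of 5240 from 107 Mb on (1.32%, 1.04 to 1.66%). Between them, only 6 of 2434 were wide (0.247%, 0.113 to 0.537%), which makes the first stretch 9.22-fold (4.06 to 20.96) and the last 5.34-fold (2.32 to 12.3) above the middle one. The density ratios there were 1.62 and 1.65. The limits on chromosomes 14 and 6 came from the density of all peaks, by a least-squares division of 1 Mb windows, and not from widths.

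Chromosome 17 was also divided, but with a limit set at 30 Mb after its 10 Mb tiles were seen. Before 30 Mb, 8 of 1527 peaks were wide (0.524%, 0.266 to 1.03%), and 6 of the 8 lay in the tile from 20 to 30 Mb, among 475 peaks (1.26%). From 30 Mb on, 90 of 3509 were wide (2.56%, 2.09 to 3.14%), a ratio of 4.90 (2.38 to 10.1), with a density ratio of 1.33. The wide peaks themselves set this limit, so the ratio and its interval are descriptions only. The tile from 30 to 40 Mb was at 1.62% (0.904 to 2.87%), an interval that overlaps that of the tile before it (0.580 to 2.73%). Narrower peaks moved with the wide ones: 5.47% of the narrower peaks from 30 Mb on were 700 bp or wider, against 2.50% before. On chromosome 14 these values were 4.73% and 0.714%.

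**Figure D3:**
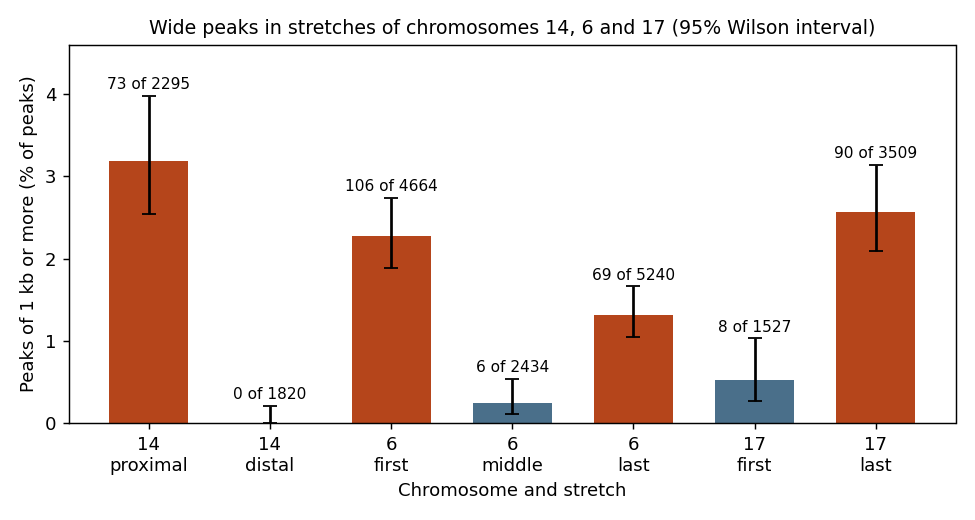
Wide peaks as a percentage of all peaks (bars, with 95% Wilson intervals) in stretches of chromosome 14 (limit at 44 Mb), chromosome 6 (58 and 107 Mb) and chromosome 17 (30 Mb), with the counts above each bar. The bars run from 0 of 1820 on distal chromosome 14 to 73 of 2295 on its proximal stretch.

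In tiles of 10 Mb with at least 200 peaks, the tile with the most wide peaks and the highest share was chromosome 14 from 30 to 40 Mb, where 51 of 1008 peaks were wide (5.06%, 3.87 to 6.59%). Among these 274 tiles, 25 had a share of 2% or more, and all 25 lay on the 8 autosomes, which hold 90 of these tiles. The highest of the 184 tiles on the other autosomes reached 1.61%. Another 32 of the 274 held no wide peak. In windows of 1 Mb, 777 of 2733 windows (28.4%) held a wide peak and 36 held 5 or more, of which 35 lay on the 8 autosomes. These autosomes were chosen on the same wide peaks and hold 64.7% of them. The counts of tiles and windows on the 8 thus follow in part from that choice and are descriptions only.

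The 5 fullest 1 Mb windows were all on chromosome 14. The window from 35000001 to 36000000 held 12 wide peaks of 91 (13.2%) and includes BAZ1A, a subunit of chromatin remodelling complexes, and NFKBIA, which encodes an inhibitor of NF-kappaB. The windows that start at 32000001, 39000001 and 23000001 held 9 each, of 88, 110 and 74 peaks. Median peak width in the 5 windows was 352 to 438.5 bp.

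Some wide peaks lay close to other wide peaks. Another wide peak lay within 50 kb of 399 of them (27.7%), within 10 kb of 146 and within 5 kb of 107. The share within 50 kb was 35.2% on the 8 autosomes and 13.98% on the other 14. It was 64.4% on chromosome 14 (47 of 73), where all 73 lay from 19 to 44 Mb, and 41.4% on chromosome 6 (75 of 181). It was 18.1% on chromosome 10 (21 of 116), 9.72% on chromosome 1 (7 of 72) and 0 of 31 on chromosome 5. In the same order, these chromosomes had 0.828, 1.08, 0.878, 0.316 and 0.175 wide peaks per Mb searched. No share was worked out for other peaks of equal density, so gathering beyond the local density of wide peaks was not tested. Joining wide peaks at gaps of up to 50 kb gave 1042 that stood alone, 130 pairs and 41 groups of 3 or more, which together held 139 wide peaks. Of the 41 groups, 36 lay on the 8 autosomes, with 10 on chromosome 6 and 8 each on chromosomes 2 and 14. The 8 autosomes hold 933 of the 1441 wide peaks (64.7%), with 181 on chromosome 6, 278 on chromosome 2 and 73 on chromosome 14. Chromosome 2 thus had as many groups as chromosome 14 from far more wide peaks.

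The closest group, on chromosome 2 from 74669579 to 74684601, put 3 wide peaks of 1430, 1050 and 1139 bp into 15.02 kb. It lies near RTKN and INO80B, a chromatin remodelling subunit gene. The next, on chromosome 2 from 36716344 to 36732339, held peaks of 1552, 1021 and 1027 bp within CRIM1, a gene for a transmembrane protein that binds BMP growth factors. On chromosome 10 from 75771040 to 75787062, peaks of 1361, 1123 and 1222 bp lay in VCL, which encodes the adhesion protein vinculin, and each was listed in 2 rows. In these CRIM1 and VCL groups no narrower peak lay between the wide ones. The group on chromosome 4 from 49297578 to 49315815 had peaks of 1044, 1017 and 1009 bp. On chromosome 4, 4 wide peaks lay within 3 Mb of a peak-free stretch of over 1 Mb, and the widest of them was also 1044 bp. How many reads of this group map uniquely was not tested. The group on chromosome 14 from 21903508 to 21922349 had peaks of 1339, 1075 and 1842 bp at CHD8, a chromatin remodeller gene.

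There were 3 groups of 5 wide peaks, named here after their values were seen. On chromosome 14 from 32367569 to 32413060, peaks of 1471, 1477, 1255, 1368 and 3219 bp shared 45.5 kb with only 2 narrower peaks, and the last of them is the third widest peak of all. On chromosome 6 from 47099264 to 47156041 the widths were 1243, 1031, 1035, 1320 and 1417 bp, and on chromosome 14 from 35074172 to 35183472 they were 1136, 1504, 1123, 1162 and 1094 bp.

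The 20 widest peaks, from 2175 to 3966 bp, are split here into those beside long gaps and those away from them. A stretch of over 1 Mb without a peak is called a long gap here, and 7 of the 20 lay within 3 Mb of one. The widest of all was chr7:57991963-57995928 (3966 bp), only 0.0578 Mb from a long gap, beside the centromere of chromosome 7. The others were chr16:33970751-33974553 (3803 bp), chr9:68419549-68422482 (2934 bp), chr21:10733052-10735886 (2835 bp), chr16:46419332-46422164 (2833 bp), chr6:64433197-64435846 (2650 bp) and chr2:92322864-92325378 (2515 bp). The peaks at 46419332 on chromosome 16 and at 92322864 on chromosome 2 lay at the very edge of a long gap, the former just after one and the latter just before one. Around centromeres the sequence is rich in satellite repeats and segmental duplications, where short reads are hard to place; how many reads of these peaks map uniquely was not tested. The peak on chromosome 6 lies in EYS, a gene for a photoreceptor protein, and was listed in 2 rows.

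The other 13 of the 20 widest all lay on the 8 autosomes, 6 of them on chromosome 2 and 3 on chromosome 14. The 8 hold 64.7% of all wide peaks and were chosen on them, so this follows in part from that choice. Of the 1441 wide peaks, 278 lay on chromosome 2 and 73 on chromosome 14. The peak of 3219 bp on chromosome 14 (32409842 to 32413060) lies between NUBPL, an assembly factor of mitochondrial complex I, and ARHGAP5. It had 4 other wide peaks within 50 kb. A peak of 2950 bp on chromosome 6 (119641343 to 119644292) lies in MAN1A1, a Golgi mannosidase gene that acts in N-glycan trimming, and had 2 wide peaks within 50 kb. The peak of 2661 bp on chromosome 10 (90751876 to 90754536) lies near the start of FAS, which encodes a death receptor, and was listed in 2 rows. It stood among 12 other peaks within 50 kb, none of them wide, whose median width was 233 bp. By contrast, the peak of 2639 bp on chromosome 14 (39518244 to 39520882), in the COPII coat gene SEC23A, had 15 peaks within 50 kb, with a median of 445 bp and 2 of them wide.

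On chromosome 2 the 6 peaks lie in 6 genes. The peak of 2463 bp from 122354226 to 122356688 is in CLASP1, a microtubule-binding protein gene. The one of 2394 bp from 36593732 to 36596125 is in CRIM1, the gene that also holds a close group of 3. The one of 2307 bp from 121696875 to 121699181 is in GLI2, a transcription factor gene of Hedgehog signalling. Those in EHBP1 (2306 bp, 62947537 to 62949842), in COBLL1 (2254 bp, 165603268 to 165605521) and in the formin gene FMNL2 (2235 bp, 153326395 to 153328629) each had 1 or 2 other wide peaks within 50 kb. The remaining peaks of the 20 were on chromosome 14 between the amino acid transporter gene SLC7A7 and MRPL52 (2447 bp, 23292257 to 23294703), on chromosome 17 between the T-box gene TBX4 and NACA2 (2320 bp, 59658438 to 59660757) and on chromosome 22 in TTC28 (2175 bp, 28626253 to 28628427). Over these 13 peaks, 4 to 15 other peaks lay within 50 kb, and for 8 of the 13 at least 1 of those was wide.

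Closeness to gaps was a trait of the very widest peaks more than of wide peaks at large. Of all 1441, 64 lay within 3 Mb of one of 21 gaps (4.44%, 3.49 to 5.63%), against 3.60% of the narrower peaks, a difference of 0.844 percentage points with an interval (Newcombe, 95%) of -0.109 to 2.04. By class the share was 3.86% at 1000 to 1499 bp and 5.42% at 1500 to 1999 bp, and 7 of 32 (21.9%, 11.02 to 38.8%) at 2000 bp or more. The 64 lay on 15 chromosomes, with the largest numbers on chromosomes 6 (14), 16 (10) and 20 (8). These were 2.79% of 501, 2.65% of 377 and 2.27% of 352 peaks beside gaps there. Over all peaks of these chromosomes, each one of the 8 high autosomes, the share of wide peaks was 1.47, 1.499 and 1.93%. Only 5 of the 64 (7.81%) were listed more than once.

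Wide peaks had close neighbours more often than narrower peaks, but not more often than peaks just below the limit. Measured from edge to edge, another peak lay within 5 kb of 905 of the 1441 (62.8%, 60.3 to 65.3%), against 52.5% of the narrower peaks, a difference of 10.3 points (7.75 to 12.8). The difference was 3.23 points when the narrower peaks were weighted by 1 Mb window to lie where the wide ones do, and 6.62 points by distance between centres. Against the 4542 peaks of 700 to 999 bp, where the share was 63.1%, the difference was -0.340 points (-3.22 to 2.50). The median distance to the nearest peak was 3.26 kb for wide peaks, 3.18 kb at 700 to 999 bp, 3.54 kb at 420 to 699 bp and 4.58 kb for all narrower peaks. Among the 32 peaks of 2000 bp or more, 17 had such a neighbour (53.1%, 36.5 to 69.1%), an interval that includes the share of the narrower peaks.

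The difference in neighbours was not the same in both sets of chromosomes. On the 14 low autosomes 66.3% of wide and 49.5% of narrower peaks had a neighbour within 5 kb, a difference of 16.8 points (12.6 to 20.8). On the 8 high autosomes the shares were 60.9% and 57.4%, a difference of 3.43 points (0.237 to 6.54). The 2 intervals do not overlap, but they take every peak as independent. The sets were drawn from these same wide peaks, so the contrast is a description only. Chromosome 4 had the highest share among chromosomes with at least 31 wide peaks, 28 of 36 (77.8%), and chromosome 17 the lowest, 49 of 98 (50.0%).

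The surroundings of wide peaks were denser than those of peaks under 700 bp, well beyond their immediate neighbours. Counted between centres, other peaks lay at 10.3 per kb per 100 wide peaks at a distance of 2 to 4 kb. The value was 9.87 around peaks of 700 to 999 bp and 7.43 around peaks under 700 bp. From 10 to 50 kb the mean was 8.70 around wide peaks, 8.39 around peaks of 700 to 999 bp and 6.72 around peaks under 700 bp. The bins there ranged from 7.77 to 9.54 for wide peaks and from 7.95 to 9.08 at 700 to 999 bp. Closer than 2 kb the value around wide peaks dropped to 7.10, where a wide peak's own body takes up part of the distance between centres. A few wide peaks almost touched another peak: 14 had one within 20 bp (0.972%, against 0.344% of narrower peaks), and 62 within 100 bp (4.30% against 2.31%). One such pair lay on chromosome 17, where a wide peak from 75086223 to 75087730 was followed 0.002 kb later by the next. Within 1 kb, another peak lay beside 23.1% of wide peaks and 25.0% of peaks of 700 to 999 bp.

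**Figure D4:**
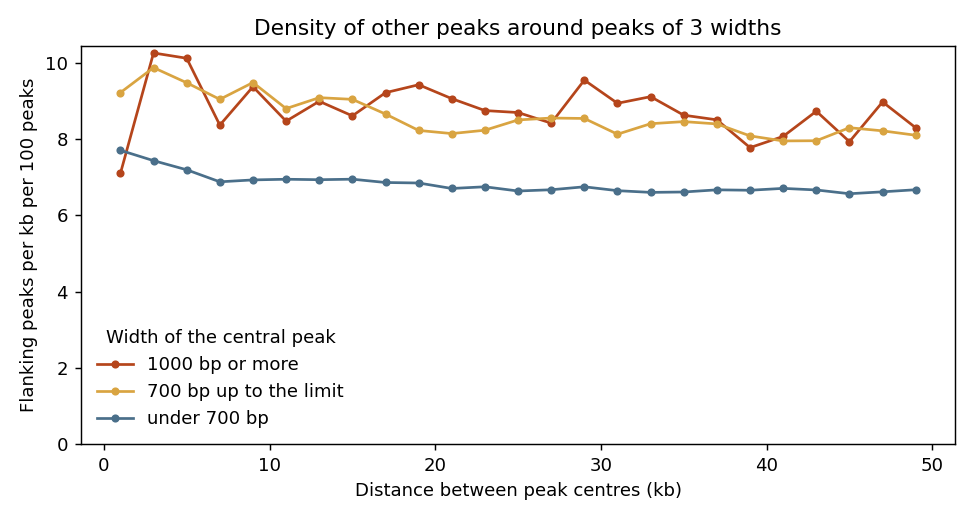
Density of other peaks (y axis, per kb per 100 central peaks) by distance between centres (x axis, kb, bins of 2 kb) around peaks of 3 width classes. Beyond 10 kb the means are 8.70 for peaks of 1000 bp or more, 8.39 for 700 to 999 bp and 6.72 for under 700 bp.

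Wide peaks were written in several rows more often than narrower ones. Of the 1441, 1159 stood in 1 row, 235 in 2, 42 in 3, 4 in 4 and 1 in 5. In all, 282 were listed more than once (19.6%, 17.6 to 21.7%), against 10.7% of narrower peaks, a difference of 8.84 points (6.86 to 10.97). Against peaks of 700 to 999 bp (17.02%) the difference was 2.55 points (0.288 to 4.93). By class the share was 9.83% at 145 to 299 bp, 9.92% at 300 to 419 bp, 14.4% at 420 to 699 bp, 17.02% at 700 to 999 bp, 19.5% at 1000 to 1499 bp and 21.1% at 1500 to 1999 bp. At 2000 bp or more it was 4 of 32 (12.5%, 4.97 to 28.1%). Unlike the neighbours, the rows differed about equally in both sets of chromosomes, by 8.11 points (5.71 to 10.8) on the 8 and by 10.1 points (6.83 to 13.9) on the 14. Neither the header nor the labels say what a repeated row stands for.

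**Figure D5:**
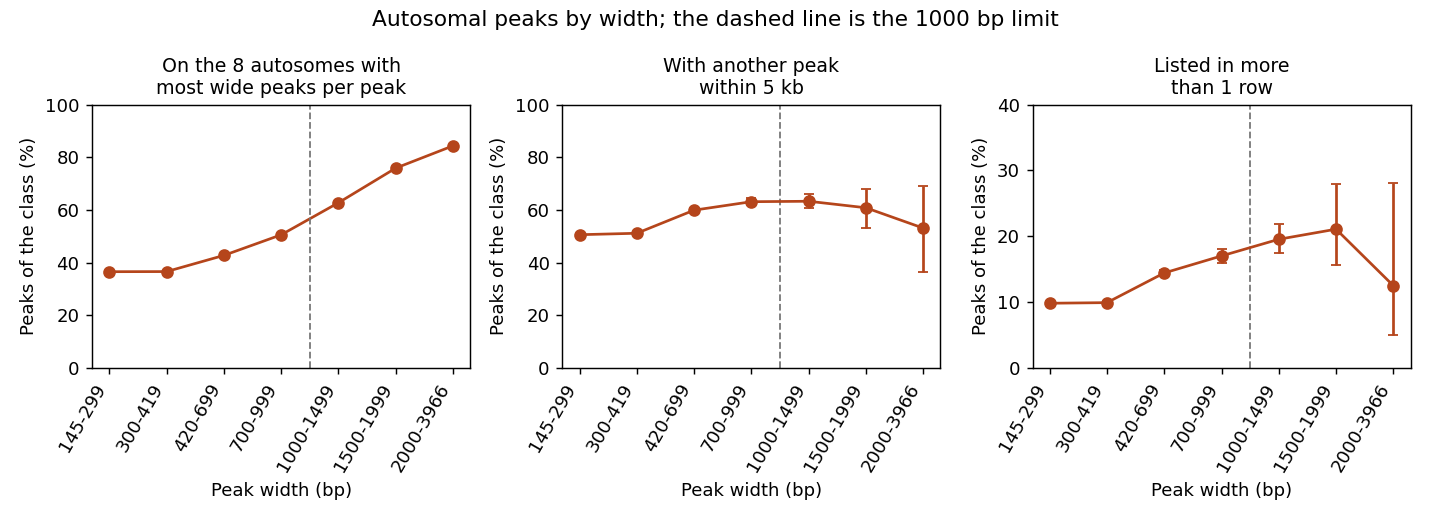
Percentage of autosomal peaks in each class of width (x axis, bp) that lie on the 8 autosomes with the highest shares (left), have another peak within 5 kb (middle) and are listed in more than 1 row (right); bars are 95% Wilson intervals in the middle and right panels. The left panel goes from 36.6 to 84.4%, of which the values past the limit were set in part by the choice of the 8 autosomes, while the middle panel is level at 63.1 and 63.3% on either side of the limit.

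The 5 wide peaks with most rows, from 1147 to 1562 bp, were not among the widest. The peak with 5 rows, 1147 bp on chromosome 15 from 66798525 to 66799671, lies at the start of ZWILCH, a gene of the mitotic checkpoint, next to the ribosomal protein gene RPL4. Those with 4 rows lay on chromosome 6 from 31635565 to 31637126 in CSNK2B, the regulatory subunit of casein kinase 2 (1562 bp), on chromosome 17 from 75086223 to 75087730 in SEC14L1 (1508 bp), on chromosome 6 from 7342478 to 7343842 in CAGE1, a cancer-testis antigen gene (1365 bp) and on chromosome 12 from 2905721 to 2907079 in FKBP4, a co-chaperone of steroid receptors (1359 bp). None of the 5 lay beside a long gap, and all but the one in ZWILCH and the one in FKBP4 had another wide peak within 50 kb. The 20 widest peaks, in contrast, had 1 row in 17 cases and 2 rows in 3.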

How the data were processed

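Per the submitters' processing notes, reads were handled with BWA on hg19, with no version stated. Per the file headers, the authors trimmed reads, removed duplicates and called peaks with MACS (read and fragment length 128 bp, effective genome size 2700000000 bp, p-value cutoff 1e-05, enrichment factor 32, local biases detected), with the knockdown H3K4me1 library as treatment and the control H3K4me1 library as control. The deposited columns are coordinates only. The fragment length, the cutoff and the depth of both libraries all bear on peak width.

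The 180505 rows were reduced to 160601 distinct peaks with Python 3.11.15, pandas 2.3.3 and scipy 1.17.1. Width is end minus start; positions are printed counted from 1. Neighbour distances are edge to edge. Searched length runs from a chromosome's first to last peak without peak-free gaps over 1 Mb. Intervals are Wilson for shares, Newcombe for differences of shares and a log interval for ratios, all 95%. The steps for distinct peaks, widths, repeated rows, neighbours, gaps and merging, and the coverage of the Newcombe interval, were checked on simulated peaks. The other steps were not. Named regions were the 20 widest peaks, the 5 fullest 1 Mb windows, the 5 peaks with most rows and the 5 closest groups. Members, lists and limits were chosen with earlier results of these data known. All 34 placements of gene symbols were on the right chromosome in the GRCh38.p14 table, whose coordinates were not used. Sequences and shares of peaks in genes or promoters need hg19 and were not analysed here. The window ranked 2 by wide peaks is not reported here.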

Additional observations from a re-analysis of the deposited data

How the results depend on the processing

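The number and share of wide peaks are set by the limit: 3661 (2.33%) at 800 bp and 198 (0.126%) at 1500 bp. They were 1776 (1.005%) when every deposited row was counted and 1804 (1.16%) when peaks within 100 bp were merged, against 1441 (0.917%). The ratio of shares between the 8 and the 14 autosomes was 2.17 at 800 bp, 5.52 at 1500 bp, 2.58 after merging and 3.79 per Mb searched, and 2.90 without chromosomes 6, 14 and 17. The excess of wide over narrower peaks with a neighbour was 6.99 points at 1500 bp, 4.79 for neighbours within 1 kb, 4.04 within 20 kb and 6.62 from centre to centre. It was 3.23 when narrower peaks were weighted by 1 Mb window to lie where the wide ones do, 3.43 on the 8 autosomes alone and 16.8 on the other 14. It turned to -0.340 against peaks of 700 to 999 bp. The excess listed more than once was 6.30 points with that weighting and 2.55 against peaks of 700 to 999 bp. The excess beside gaps was 4.48 points at 1500 bp and 18.3 at 2000 bp. Comparisons by chromosome set, with peaks of 700 to 999 bp, at 2000 bp and without chromosomes 6, 14 and 17 were chosen after seeing the data. All other alternatives run for a share, ratio or difference stayed within the interval of the reported value. Those that need genes or sequence on hg19 were not run. No paired analysis was possible because every group is a single library without a replicate number, which also leaves no library to leave out. The unknown depth limits every width: a narrow peak may be a wide region that is thinly covered.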
